A study of Homo sapiens with 6 samples.

Results

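The enzymes described here carry the synthesis of serine and the folate-bound transfer of single carbons to thymidylate. Their 9 genes are PHGDH, PSAT1, PSPH, SHMT1, SHMT2, MTHFD1, MTHFD2, MTHFD1L and TYMS, chosen by name as the probes whose platform gene symbol is one of them. They have 13 of the 48799 probes on the array, and all 9 genes were among the 11732 genes tested. Single-colour Illumina bead arrays were hybridised with cRNA of cells labelled SKOV3, which is an established line from a human ovarian carcinoma. The 6 arrays form 2 groups of 3: SKOV3-ip1, labelled as parental cells and called ip1 here, and SKOV3-OM3, labelled as metastatic cells and called OM3. The labels give no treatment, time point or further allele for either group, and the RNA protocol speaks of tissues while the source is given as cells. Whether the 3 arrays of a group stand for separate cultures is not stated, and the p-values below reflect the spread among these arrays alone, part of which may be technical.

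Serine is made from a glycolytic intermediate in a chain of reactions catalysed by PHGDH, PSAT1 and PSPH. The serine hydroxymethyltransferases then pass a carbon from serine to tetrahydrofolate, SHMT1 in the cytosol and SHMT2 in mitochondria, leaving glycine. MTHFD2 and MTHFD1L oxidise that carbon in mitochondria and release it as formate, and MTHFD1 takes formate up again in the cytosol. Thymidylate synthase, encoded by TYMS, spends the methylene form on DNA synthesis and is the target of fluorouracil, while purine synthesis spends the formyl form. The comparison of OM3 with ip1 asks which of these steps differ between cells labelled metastatic and parental.

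At an adjusted p under 0.05 in limma, 5 of the 9 genes were called higher in OM3, against 31.2% of all genes tested. The promoters of these 5 are shown first, as RefSeq sequence of GRCh38.p14. Of the 9 genes, 7 were matched in the RefSeq promoter table, and PSPH and SHMT2 are named only. The 250 bases before the listed start of PHGDH, PSAT1, MTHFD1 and MTHFD2 are printed 5′ to 3′ on the strand of the gene, all of them the plus strand. For MTHFD1L, which has 4 listed starts, only 30 bases around a motif match are given.
PHGDH, chr1:119711684-119711933: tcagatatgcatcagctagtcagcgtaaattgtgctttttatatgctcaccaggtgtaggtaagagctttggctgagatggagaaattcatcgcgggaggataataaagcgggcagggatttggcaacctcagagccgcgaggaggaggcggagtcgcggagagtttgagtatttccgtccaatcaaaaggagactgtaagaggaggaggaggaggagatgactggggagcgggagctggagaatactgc
PSAT1, chr9:78296875-78297124: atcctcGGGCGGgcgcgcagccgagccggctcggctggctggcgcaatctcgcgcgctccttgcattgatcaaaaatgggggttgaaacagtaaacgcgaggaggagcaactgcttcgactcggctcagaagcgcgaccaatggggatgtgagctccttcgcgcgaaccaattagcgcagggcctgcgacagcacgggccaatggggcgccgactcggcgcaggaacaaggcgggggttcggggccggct
MTHFD1, chr14:64388103-64388352: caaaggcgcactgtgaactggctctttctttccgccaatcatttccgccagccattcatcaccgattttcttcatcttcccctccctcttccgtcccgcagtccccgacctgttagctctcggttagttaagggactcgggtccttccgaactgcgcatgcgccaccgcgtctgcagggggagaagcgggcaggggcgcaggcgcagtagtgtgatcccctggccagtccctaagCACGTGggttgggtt
MTHFD2, chr2:74198365-74198614: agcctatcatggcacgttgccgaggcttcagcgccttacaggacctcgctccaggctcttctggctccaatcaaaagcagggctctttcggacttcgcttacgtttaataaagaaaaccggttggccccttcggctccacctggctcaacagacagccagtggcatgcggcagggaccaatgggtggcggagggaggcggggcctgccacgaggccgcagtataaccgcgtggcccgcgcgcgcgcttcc
MTHFD1L, chr6:150866346-150866375: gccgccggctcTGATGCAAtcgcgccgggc
Capitals mark matches, on either strand, to any of the motifs searched. These were TGATGNAA, the ATF4 type; CACGTG, the E-box; GGGCGG, the GC box; and TTTGGCGC, the E2F type.

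No motif was found in all of these promoters. The ATF4-type letters were present in 1 of the 7 matched genes, MTHFD1L, against 3.19% of the 27305 genes with a window of that length. The E-box was found in MTHFD1 and MTHFD1L, against 6.49% of genes. The GC box was found in PSAT1, SHMT1 and MTHFD1L, against 42.3% of genes. E2F-type letters were in 0 of the 7, against 0.553% of genes. A match is a run of letters, not a site, and a missing match says only that these letters are not in the window.

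Of the 9 genes, 5 rose in OM3 (PHGDH, PSAT1, MTHFD1, MTHFD2 and MTHFD1L) by 1.58-fold to 1.92-fold, and 0 fell in the limma fit with Benjamini-Hochberg adjustment over all genes tested. Of all genes tested, 31.2% were called higher and 25.9% were called lower at an adjusted p under 0.05. In the 5 genes that rose, every OM3 array lay above every ip1 array, as in 35.2% of all genes. At an unadjusted p under 0.05 the count of lower genes was 1, SHMT2. The median log2 fold change of the 9 genes was 0.66 and that of all genes 0.085. Rises of this size were common: the median of all genes called higher was 0.88, and 45.3% of them exceeded the rise of PSAT1. Values below are normalized log2 signals, fold changes are OM3 over ip1, and levels of different probes are not compared.

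**Figure D1:**
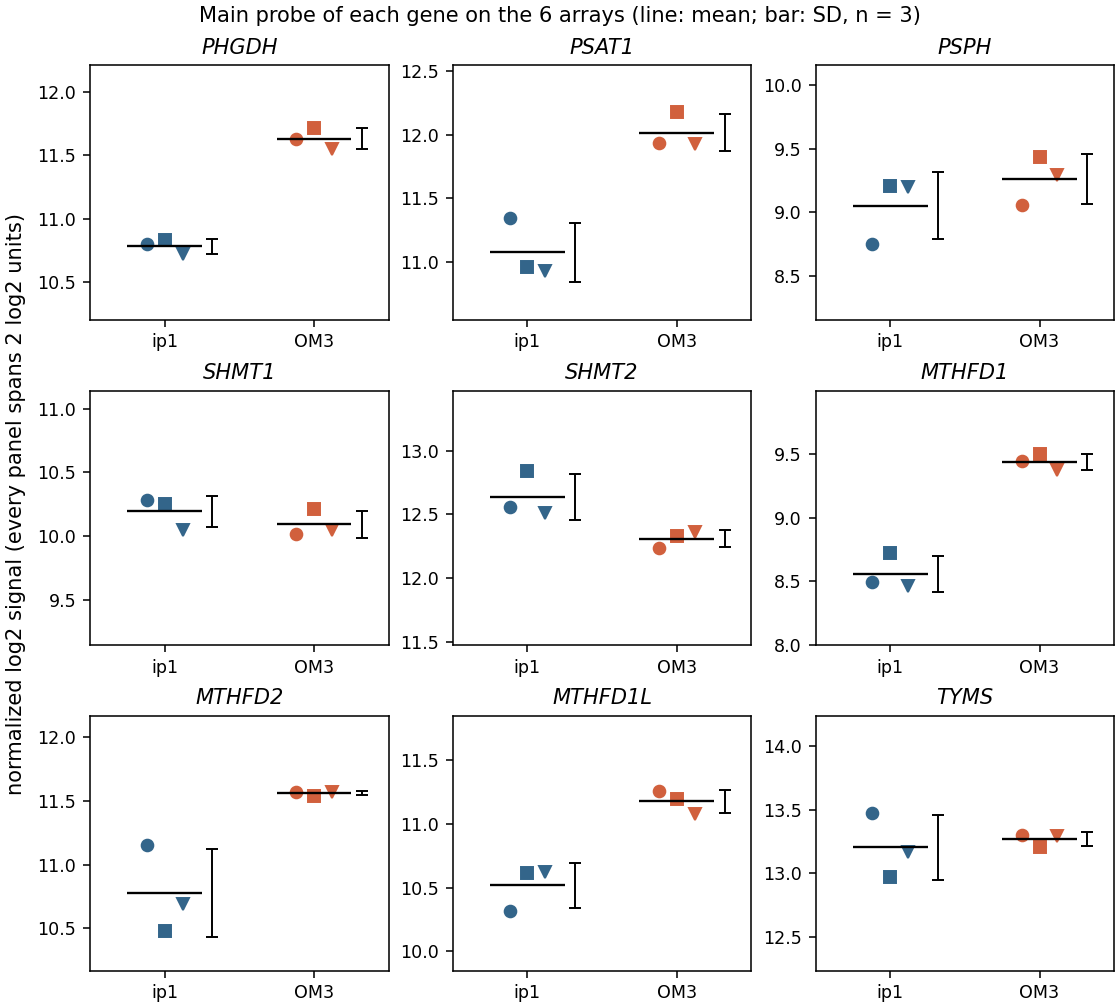
Normalized log2 signal (y axis) of the main probe of each of the 9 genes on the 3 ip1 arrays (blue) and the 3 OM3 arrays (orange); circles, squares and triangles are arrays 1, 2 and 3 of a group, lines are means and bars SD (n = 3). In PHGDH, PSAT1, MTHFD1, MTHFD2 and MTHFD1L every OM3 array lies above every ip1 array, in SHMT2 every OM3 array lies below, and in PSPH, SHMT1 and TYMS the groups overlap.

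The first enzymes of serine synthesis were higher in OM3. PHGDH, the dehydrogenase that commits carbon to serine, was at 10.80, 10.83 and 10.72 on the ip1 arrays and at 11.63, 11.72 and 11.55 on the OM3 arrays. The groups were far apart beside their spread, with a log2 fold change of 0.85 ± 0.12 (SE, n = 3 + 3, limma adjusted p = 0.000433). PSAT1, the aminotransferase that follows, was at 11.34, 10.96 and 10.93 on the ip1 arrays and at 11.94, 12.18 and 11.93 on the OM3 arrays. Its log2 fold change of 0.94 ± 0.16 was the largest of the 9 (limma adjusted p = 0.00105). The second PSAT1 probe, annotated to another transcript, was not above background on any of the 6 arrays and was not tested.

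PSPH, the phosphatase that releases serine, gave 2 different answers from its 2 probes. Its main probe, the one with the higher signal, was at 8.75, 9.21 and 9.20 on the ip1 arrays and at 9.06, 9.44 and 9.29 on the OM3 arrays. The groups overlapped, and the log2 fold change of 0.21 ± 0.17 did not pass (limma adjusted p = 0.333, 95% interval -0.19 to 0.61). The other probe, annotated to the same transcript, was at 6.91, 6.33 and 6.43 on the ip1 arrays and at 7.93, 7.94 and 7.82 on the OM3 arrays. Here the groups were well apart, with a log2 fold change of 1.34 ± 0.18 (limma adjusted p over all kept probes = 0.000304). The mean of the 2 probes gave 0.78 (limma adjusted p = 0.000606), so whether PSPH counts as a sixth riser rests on the probe. RefSeq lists 1 PSPH pseudogene, and whether a probe reads it was not tested.

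Neither serine hydroxymethyltransferase was called higher. SHMT2, the mitochondrial enzyme, was at 12.56, 12.84 and 12.51 on the ip1 arrays and at 12.24, 12.33 and 12.36 on the OM3 arrays. Every OM3 value lay below every ip1 value, as for 29.0% of all genes, yet the log2 fold change of -0.33 ± 0.14 did not pass (limma adjusted p = 0.0737, 95% interval -0.64 to -0.0093). It passed with limma's trended and robust variance (adjusted p = 0.0166), in the authors' value table (0.0209), without background correction (0.0272) and with cyclic loess (0.0415).

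SHMT1, the cytosolic enzyme, had 3 kept probes, all with a negative log2 fold change. The main probe was at 10.28, 10.25 and 10.05 on the ip1 arrays and at 10.01, 10.21 and 10.05 on the OM3 arrays. These groups overlapped, and the log2 fold change of -0.10 ± 0.13 did not pass (limma adjusted p = 0.544, 95% interval -0.40 to 0.20); with median centring it was 0.063. The probe annotated to a second transcript was at 8.76, 8.94 and 8.70 on the ip1 arrays and at 7.96, 8.41 and 7.74 on the OM3 arrays. That probe fell without overlap, with a log2 fold change of -0.76 ± 0.19 (limma adjusted p over all kept probes = 0.0091). Of all kept probes, 23.1% were called lower and 28.1% higher. The remaining probe gave -0.35 ± 0.21, with overlapping groups (limma adjusted p over all kept probes = 0.208).

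The 3 enzymes that interconvert the folate-bound carbon after that step all rose. MTHFD1, the trifunctional cytosolic enzyme, was at 8.49, 8.72 and 8.46 on the ip1 arrays and at 9.44, 9.50 and 9.38 on the OM3 arrays. The gap between the groups was several times their spread, with a log2 fold change of 0.88 ± 0.13 (limma adjusted p = 0.000493). MTHFD1L, the mitochondrial synthetase that releases formate, was at 10.31, 10.62 and 10.62 on the ip1 arrays and at 11.26, 11.20 and 11.08 on the OM3 arrays. Its groups did not overlap either, and its log2 fold change of 0.66 ± 0.14 was the smallest of the 5 rises (limma adjusted p = 0.00366).

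MTHFD2, the mitochondrial dehydrogenase and cyclohydrolase, is known for its high level in many tumours. It was at 11.15, 10.48 and 10.69 on the ip1 arrays and at 11.57, 11.54 and 11.57 on the OM3 arrays. The OM3 arrays were close together (SD 0.017), while ip1 array 1 stood above the other ip1 arrays (SD 0.35). The log2 fold change was 0.79 ± 0.18 (limma adjusted p = 0.00531), and 0.97 without that array. RefSeq lists 7 pseudogenes of MTHFD2 and 4 of PSAT1, and whether the probes read them was not tested.

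TYMS, which spends the carbon on thymidylate, did not pass the test. It was at 13.47, 12.97 and 13.17 on the ip1 arrays and at 13.30, 13.20 and 13.29 on the OM3 arrays. The OM3 values lay inside the ip1 range. Its log2 fold change was 0.064 ± 0.16 (limma adjusted p = 0.749), and the 95% interval, -0.29 to 0.42, leaves room for a change in either direction. Its sign turned with cyclic loess (-0.028) and without array 2 of ip1 (-0.054).

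**Figure D2:**
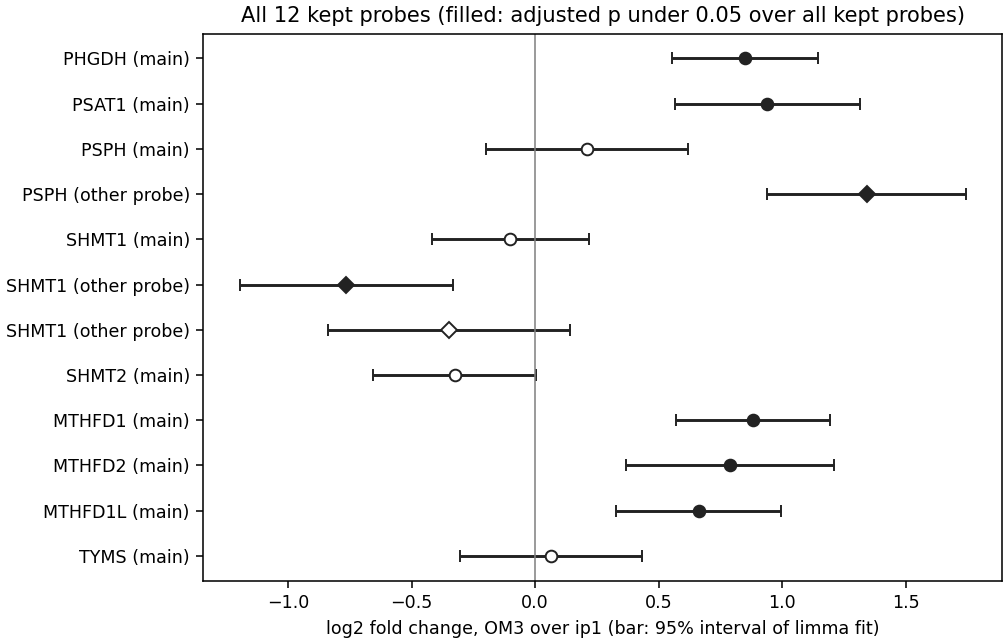
Log2 fold change of OM3 over ip1 (x axis) for all 12 kept probes of the 9 genes, with the 95% interval of the limma fit over all kept probes; circles are the main probe of a gene, diamonds its other probes, and filled symbols have an adjusted p under 0.05. The PSPH probes stand at 0.21 and 1.34 and the SHMT1 probes at -0.10, -0.76 and -0.35.

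The ip1 SD exceeded the OM3 SD for 8 of the 9 main probes, PHGDH being the exception at 0.058 against 0.086, and for 54.2% of all genes tested. The difference between these shares was not tested. On ip1 array 1, PSAT1, MTHFD2, SHMT1 and TYMS were at their highest ip1 value, while PSPH and MTHFD1L were at their lowest. None of the 9 genes lost or gained a call when any of the 6 arrays was left out.

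**Figure D3:**
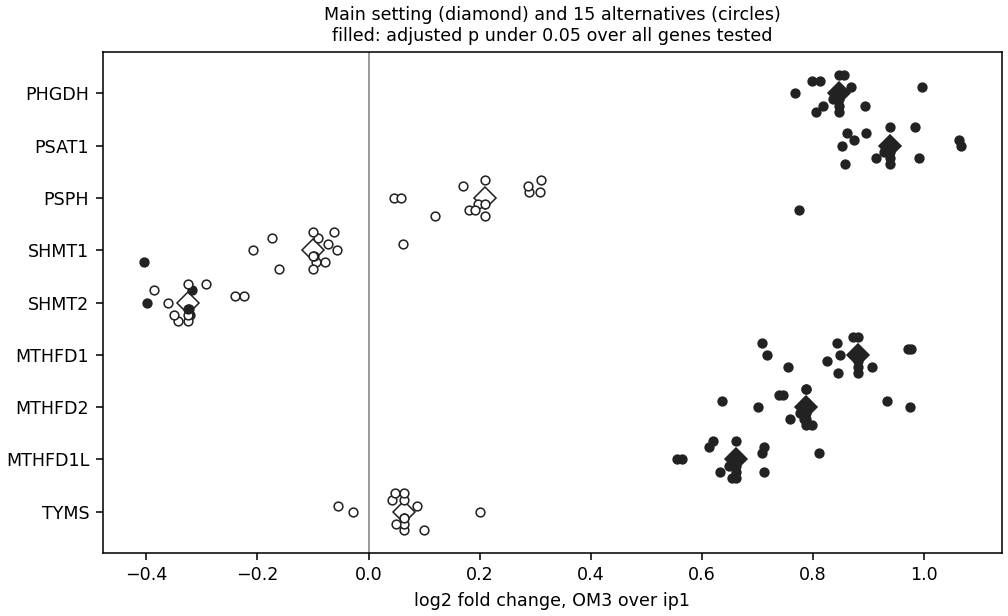
Log2 fold change of OM3 over ip1 (x axis) of the 9 genes in the main setting (diamonds) and under 15 alternatives of processing or array choice (circles); filled symbols have an adjusted p under 0.05. The 5 genes that rose are filled throughout, between 0.56 and 1.07; PSPH and SHMT1 are filled when their probes are averaged, and SHMT2 under 4 alternatives.

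Changes were set against each other in 5 pairs of linked enzymes, as the within-array difference of the log2 signals of a pair. An exact two-sided permutation test over the arrays was used, which cannot go below 0.1 with 3 arrays against 3. The difference PSPH minus PHGDH changed by -0.64 between the groups (SD 0.28 in ip1 and 0.18 in OM3, exact p = 0.1, adjusted over the pairs 0.25), without overlap. With the mean of kept probes that change was -0.072 (exact p = 0.4), so it rests on the choice of PSPH probe. That of MTHFD1L minus MTHFD1 changed by -0.22 (SD 0.18 and 0.067, exact p = 0.1, adjusted 0.25), with the groups just apart. It was -0.095 in the authors' value table (exact p = 0.7), -0.12 without background correction and -0.13 without array 3 of ip1 (both exact p = 0.2).

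The other pairs overlapped. SHMT2 minus SHMT1 changed by -0.23 (SD 0.16 and 0.097, exact p = 0.2, adjusted 0.333), and by 0.079 when a gene's probes were averaged. MTHFD2 minus MTHFD1 changed by -0.093 (SD 0.45 and 0.076, exact p = 0.7, adjusted 0.7), and PSAT1 minus PHGDH by 0.091 (SD 0.22 and 0.080, exact p = 0.5, adjusted 0.625). The last value depends on the ip1 arrays: it was 0.22 without array 1, 0.0049 without array 2 and 0.048 without array 3. None of the 5 pairs could reach the threshold in this design.

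The genes whose 6 values ran closest to those of PSAT1 were NAT1, SLC39A9 and MNT. Likeness was the Euclidean distance over the 6 arrays after centring each gene on its own mean. The distances were 0.11, 0.124 and 0.139, and the log2 fold changes 0.93, 1.00 and 0.94. NAT1 was at 6.11, 5.82 and 5.80 on the ip1 arrays, close to background, so its values there rest in part on background signal. Like PSAT1, each of the 3 was highest on array 1 among the ip1 arrays and on array 2 among the OM3 arrays. That likeness follows from picking them by these same values and adds nothing to the distances.

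Around the 9 enzymes, genes of 8 linked lists are given by counts, to be read against the background of 31.2% higher and 25.9% lower. In the list glycine cleavage and serine use, 4 of 9 tested genes rose and 2 fell (median log2 fold change -0.23). The glycine decarboxylase gene GLDC was at 8.23, 8.39 and 8.17 in ip1 and at 11.26, 11.47 and 11.46 in OM3, and its log2 fold change was 3.13 ± 0.13 (limma adjusted p = 2.48e-07). GCSH, the carrier protein of the same complex, rose by 1.36 ± 0.20 (limma adjusted p = 0.000434). SFXN1, a mitochondrial serine transporter, rose by 1.30 ± 0.14 (limma adjusted p = 6.42e-05). The complex is completed by DLD, which rose by 0.92 ± 0.17 (limma adjusted p = 0.00168, chosen after its values were seen), and AMT, which was too dim to be tested. The 2 genes of the list that fell, also named after their values were seen, were SFXN3 and SPTLC2. Their log2 fold changes were -1.45 ± 0.32 and -0.63 ± 0.18 (limma adjusted p = 0.00419 and 0.0155). SFXN3 was above background on 1 of 3 OM3 arrays and SPTLC2 on 2 of 3.

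De novo purine synthesis had 8 of 11 tested genes higher and 0 lower in limma, also 0 lower at an unadjusted p under 0.05 (median log2 fold change 0.73). PPAT, which catalyses the committed step, rose by 1.86 ± 0.15 (limma adjusted p = 1.06e-05). PRPS2, which makes its substrate, rose by 1.85 ± 0.19, and IMPDH2, of the branch to guanine nucleotides, by 1.06 ± 0.13 (limma adjusted p = 4.72e-05 and 0.00019). The enzymes of this route that consume formyl-folate are GART and ATIC, here named after their values were seen. GART rose by 0.61 ± 0.12 and ATIC by 0.90 ± 0.14 (limma adjusted p = 0.00236 and 0.00057).

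Deoxynucleotide synthesis and salvage had 6 of 14 tested genes higher and 1 lower (median log2 fold change 0.45). TK1, the salvage kinase that makes thymidylate from thymidine, was at 12.01, 12.25 and 11.99 in ip1 and at 10.82, 10.97 and 10.70 in OM3. It was the member that fell, with a log2 fold change of -1.26 ± 0.14 (limma adjusted p = 8.67e-05). RRM2, the small subunit of ribonucleotide reductase, rose by 1.23 ± 0.14, and DHODH, of pyrimidine synthesis, by 0.95 ± 0.13 (limma adjusted p = 8.62e-05 and 0.00033). In the authors' value table the value of DHODH was 0.57. With cyclic loess 4 genes of the list were called lower.

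In folate transport and retention, 2 of 7 tested genes rose and 3 fell (median log2 fold change -0.37). SLC25A32, the mitochondrial folate carrier, was at 6.90, 6.87 and 6.60 in ip1 and at 8.03, 7.57 and 8.33 in OM3, a rise of 1.18 ± 0.20 (limma adjusted p = 0.00112), and of 0.71 in the authors' value table. FOLR1, which encodes a folate receptor, was lower, from 10.64 in ip1 to 5.82 in OM3, where it was above background on 1 of 3 arrays (limma adjusted p = 1.22e-07). Its log2 fold change of -4.82 ± 0.18 therefore rests in part on background signal, and it was -3.58 without background correction and -3.32 in the authors' value table. FOLR3, another folate receptor gene, was not above background on the OM3 arrays (means 8.49 and 5.60), and its probe was at least 5.65-fold lower (limma adjusted p = 2.64e-06). Its fitted log2 fold change, which rests on background signal, was -2.89, and -1.75 without background correction and -1.58 in the authors' value table. The third gene that fell was FPGS, above background on 1 of 3 OM3 arrays. When only probes above background on all 6 arrays were kept, 0 genes of the list were called lower. That filter removes the probes of FOLR1, FOLR3 and FPGS for being dim in OM3, so it does not retest their falls. The list other folate carbon enzymes had 4 tested genes, and 0 of them were called in limma, also 0 at an unadjusted p under 0.05.

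In the methionine cycle and transsulfuration, 4 of 9 tested genes rose and 1 fell (median log2 fold change 0.14). CBS, which joins serine to homocysteine, was at 8.25, 8.40 and 8.62 in ip1 and at 11.40, 11.53 and 11.33 in OM3. Its log2 fold change was 3.00 ± 0.14 (limma adjusted p = 4.76e-07). MAT2B, the regulatory subunit of methionine adenosyltransferase, rose by 1.26 ± 0.17 (limma adjusted p = 0.000231). AHCYL1, a relative of the homocysteine-releasing hydrolase, had a log2 fold change of -0.98 ± 0.12 (limma adjusted p = 0.000145).

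ATF4 is the stress-responsive transcription factor known to act on PHGDH, PSAT1 and MTHFD2. In the list ATF4 and amino acid synthesis partners, 2 of 11 tested genes rose and 5 fell (median log2 fold change -0.31). ASNS, asparagine synthetase, rose by 1.58 ± 0.13 and GOT1, the cytosolic aspartate aminotransferase, by 1.43 ± 0.13 (limma adjusted p = 1.69e-05 and 2.33e-05). The main probe of PYCR1, of proline synthesis, was not above background on the OM3 arrays (means 8.60 and 5.60) and was at least 6.07-fold lower (limma adjusted p = 4.6e-07). That bound is of the probe: the fitted log2 fold change of PYCR1 was -2.99 for it but -1.59 for the mean of the kept probes, and -1.66 in the authors' value table. ATF4 itself, named after its values were seen, had a log2 fold change of -0.18 ± 0.13 (limma adjusted p = 0.268).

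Among genes of S phase and proliferation, 4 of 16 rose and 3 fell (median log2 fold change 0.27). The replicative helicase gene MCM6 rose by 1.13 ± 0.13, the cyclin gene CCNE1 rose by 0.53 ± 0.12, and MKI67, a proliferation marker, had a log2 fold change of -0.72 ± 0.17 (limma adjusted p = 0.000101, 0.00429 and 0.00551). The summed normalized signal of the list was 46893 to 51150 on the ip1 arrays and 59262 to 61824 on the OM3 arrays. Such a sum is carried mostly by the brightest probes and does not say how many genes of the list rose. The part of these genes in the rise of the 5 enzymes was not tested. The call of CCNE1 was lost when its probes were averaged (adjusted p = 0.419), and MKI67 was at -0.44 in the authors' value table.

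**Figure D4:**
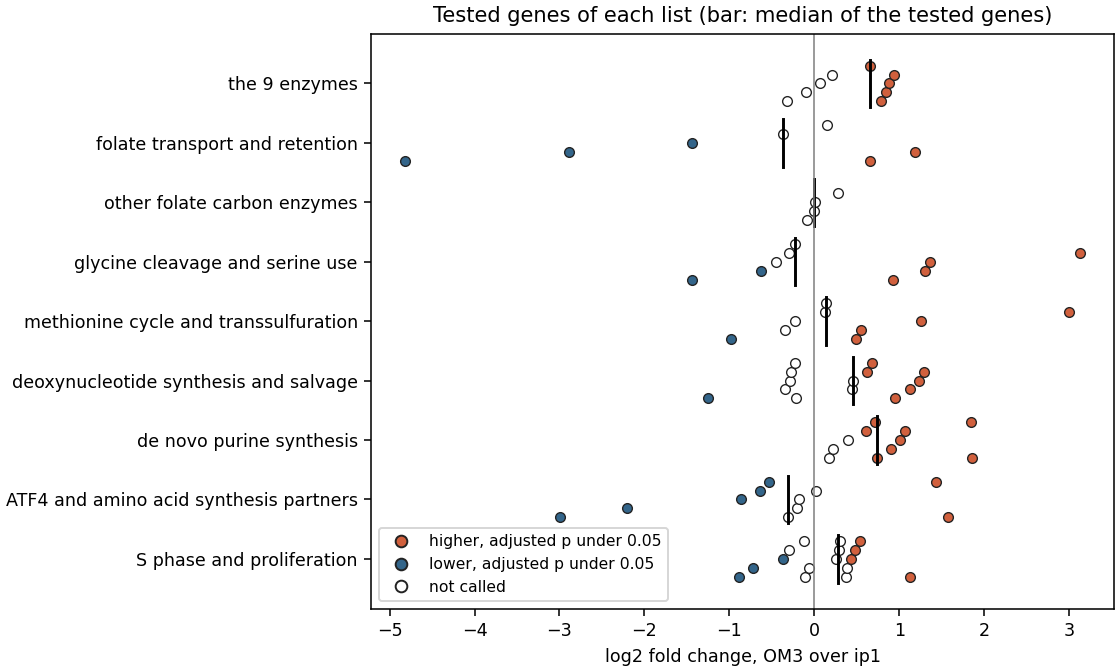
Log2 fold change of OM3 over ip1 (x axis) for the tested genes of the 9 enzymes and of each of the 8 linked lists; orange and blue circles were called higher and lower, open circles were not called, and bars are medians. The medians run from -0.37 for folate transport and retention to 0.73 for de novo purine synthesis. Points of FOLR3, PYCR1 and VLDLR rest on background signal in OM3. Those of FOLR1, FPGS, SFXN3 and E2F1 do so in part, being above background on 1 of 3 OM3 arrays.

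The groups also differed widely outside these pathways. Arrays of 1 group correlated at 0.984 to 0.988 over all genes tested and arrays of different groups at 0.797 to 0.813. Of 10 markers of ovarian carcinoma and SKOV3, 8 fell, EPCAM alone rose and MUC16 was not called. Of all genes tested, 25.9% were called lower and 31.2% higher. The summed normalized signal of the 10 was 43462 to 47204 in ip1 and 9233 to 10905 in OM3. Among those that fell, ERBB2 went from 12.79 to 9.26. PAX8, MSLN and KRT19 were not above background on the OM3 arrays, and their probes were at least 42.4-fold, 29.3-fold and 217-fold lower. KRT7 and WT1 were above background on 1 of 3 OM3 arrays. The probes of these genes passed the filter through ip1. Of 9 fibroblast markers, all 6 that were tested rose, with a summed signal of 374 to 393 in ip1 and 7790 to 8880 in OM3. COL1A2, COL3A1, DCN, LUM and THY1 were not above background on the ip1 arrays, and POSTN was on 1 of 3. These 6 passed the filter through OM3, so that all of them rose follows in part from the filter. The ip1 sum rests largely on background signal. PDGFRB was below background on all 6 arrays, and COL1A1 and FAP did not pass the filter. Of the mesothelial markers 2 of 3 tested fell, as did 2 of 3 tested adipocyte markers, while DES and ADIPOQ did not pass the filter. The mesothelial markers that fell, LRRN4 and UPK3B, passed it through ip1. In OM3 LRRN4 was not above background, and UPK3B was on 1 of 3 arrays. The adipocyte marker PLIN1 was not above background on the OM3 arrays, and its fall was bounded only at 1.00-fold or more. Of the leukocyte markers, PTPRC and CD3E were below background on all 6 arrays and CD14 was tested and not called, while CD68 was above background on all 6 and fell from 11.07 to 9.07 (limma adjusted p = 2.53e-05). Of the endothelial markers, CDH5 and VWF were below background on all 6 arrays, PECAM1 was above it on all 6, and PECAM1 and KDR were tested and not called. The part of these differences in the results above was not tested.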

How the data were processed

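Linear probe intensity values were used as deposited by the authors, exported from BeadStudio per the submitters' processing notes; 3 columns that match no sample described here were not used. Columns name the group only, so arrays are numbered in column order. The table holds no detection p-values or control probes, so limma's normexp (offset 16) took its background from the full set of signals on each array, followed by quantile normalization and log2. Probes above an array's background mode (one-sided probability 0.05) on at least 3 of 6 arrays were kept, 19011 in all. Precision is limited by the 3 arrays per group (median SE of the log2 fold changes 0.16). Median signals were 131 to 142, and 38.3% to 41.9% of probes were above background.

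Symbols came from the platform annotation (28094 probes with 1 gene, 13 with several, 20692 with none), updated through gene identifiers to RefSeq (GRCh38.p14; 39 not matched). A gene is its kept probe with the highest mean. The test was limma's lmFit and eBayes (two-sided, limma 3.58.1, R 4.3.3), checked on simulated data; an adjusted p under 0.05 was called. "At least" folds set the bright group's mean against the lowest signal above background, or the probe's own where higher. The authors' deposited log2 table was an alternative: their columns share 1 distribution with a median of 7.00, each matched 1 array of its own group by rank, and no source used here states their centring. Other alternatives changed background correction, scaling, filter, probe choice and variance model, or left out an array.

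The 9 genes and all lists were chosen with earlier results of these data known. Named were all 9 genes, up to 3 called genes of each list with the smallest adjusted p, and the 3 nearest profiles of the largest rise; no called gene of the 9 fell. A further planned pair of enzymes is not reported here.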

Additional observations from a re-analysis of the deposited data

How the results depend on the processing

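PHGDH, PSAT1, MTHFD1, MTHFD2 and MTHFD1L kept their direction and call under all 15 alternatives, at 0.77 to 1.00, 0.85 to 1.07, 0.71 to 0.98, 0.64 to 0.97 and 0.56 to 0.81 on the log2 scale. The count of the 9 genes called higher was 5 without any 1 array, and 6 with the mean of kept probes. The count called lower went from 0 to 1 without background correction, with cyclic loess, in the authors' value table and with the trended, robust variance (SHMT2), and to 1 with the mean of kept probes (SHMT1). The log2 fold change of TYMS was -0.028 with cyclic loess and ran from -0.054 (without array 2 of ip1) to 0.20 with 1 array left out; that of SHMT1 was 0.063 with median centring. Cyclic loess moved the median of all genes by -0.11.

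Of the pairs, MTHFD2 minus MTHFD1 changed by 0.0029 without background correction and by 0.031 in the authors' value table, and by -0.33 to 0.12 with 1 array left out (0.12 without array 1 of ip1); SHMT2 minus SHMT1 changed by 0.079 and PSPH minus PHGDH by -0.072 with the mean of kept probes, and MTHFD1L minus MTHFD1 by -0.095 in the authors' value table. Values of dim genes shrank without background correction and in the authors' value table: FOLR3 to -1.75 and -1.58, PYCR1 to -1.83 and -1.66, DHODH to 0.63 and 0.57, and in the latter SLC25A32 to 0.71 and MKI67 to -0.44. In deoxynucleotide synthesis and salvage, the count of lower genes was 2 without background correction, with offset 50, in the authors' value table, with probes above background on all 6 arrays, with the mean of kept probes and with the trended, robust variance, 4 with cyclic loess, and 1 to 2 with 1 array left out (2 without array 1 of ip1). In the methionine list it was 2 with cyclic loess and 1 to 2 with 1 array left out (2 without array 2 of ip1). With probes above background on all 6 arrays, lower counts were 0 for folate transport, 0 for glycine cleavage and serine use, and 3 for the ATF4 list. This filter tests fewer genes and removes probes that are dim in OM3, so it does not retest their falls. With 1 array left out, glycine cleavage and serine use had 1 to 3 lower genes (1 without array 2 of ip1 or array 1 of OM3), and S phase had 2 to 5 higher genes (2 without array 2 of ip1); S phase had 7 higher with median centring and 2 with the mean of kept probes. Apart from the filter, the cause was not tested. No paired analysis was possible because the labels give the groups no shared replicate number.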
